A study of Rattus norvegicus with 6 samples.

Results

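Laminin chains and nidogens were followed in primary rat ovarian granulosa cells, which line the ovarian follicle around the oocyte. The genes were chosen by name: Lama1, Lama2, Lama3, Lama4, Lama5, Lamb1, Lamb2, Lamc1, Nid1 and Nid2. All 10 were found, each as a single row among the 17525 genes of the table. The cells came from SD rats aged 21 days that had received 60 IU of PMSG, a gonadotropin that drives follicle growth, 48 h before the ovaries were removed, and they were then cultured with fetal bovine serum. The 3 libraries used here carry the label ATR in their titles. The series' title speaks of long atrazine exposure, atrazine being a herbicide, but the labels neither expand ATR nor state a dose, a duration, or whether rats or cultures were exposed. The 3 libraries labelled Control are not analysed here, so nothing below measures what an exposure did. The labels do not say that the ATR libraries came from separate animals or cultures, so p-values and SDs measure only the spread between these libraries, which may be technical.

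Each laminin is a cross-shaped secreted trimer of an alpha, a beta and a gamma chain. Trimers join through the ends of their short arms into a sheet on the cell surface, which integrins and dystroglycan hold there, and nidogens bridge this sheet to the collagen IV network to form a basement membrane. In the ovary such a membrane, the follicular basal lamina, encloses the granulosa cells and parts them from the theca, and granulosa cells help to make it.

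Reads assigned to genes numbered 19020494 in ATR 1, 18677212 in ATR 2 and 19170552 in ATR 3, of which the laminin and nidogen genes took 0.324% to 0.336%. Among granulosa markers Inha, Inhba, Gja1, Nr5a1 and Foxl2 stood between 55.1 and 1906 TPM (a level of transcripts scaled for length and library size). Fshr reached 5.80 ± 1.39 TPM (SD, n = 3), while the defining granulosa genes Cyp19a1 (aromatase) and Amh had means of 0.057 and 0.070 TPM. The surface epithelium marker Upk3b stood at 1403 ± 101 TPM. Of the 7 markers of that list 5 reached 1 TPM, a share like that of all genes (12518 of 17525). Krt19 and Epcam did not, with means of 0.137 and 0.333 TPM. All 3 theca markers stayed under 1 TPM, as did 5007 of all 17525 genes.

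The region before the start of a gene was printed for the leading alpha chain (Lama5), the gamma chain (Lamc1) and the pair of alpha chains that differed most between libraries (Lama4 and Lama2). The sequences are from RefSeq, build GRCr8, which is not the rat build that the submitters' processing notes name (Rnor_6.0), and each gives the 250 bases before the annotated start, 5′ to 3′ on the strand of the gene. Capitals mark matches on either strand to the GC box (GGGCGG), the TATA box (TATAAA), the CCAAT box (CCAAT) and the AP-1 site (TGACTCA).
Lama5, chr3:187695975-187696224, minus strand: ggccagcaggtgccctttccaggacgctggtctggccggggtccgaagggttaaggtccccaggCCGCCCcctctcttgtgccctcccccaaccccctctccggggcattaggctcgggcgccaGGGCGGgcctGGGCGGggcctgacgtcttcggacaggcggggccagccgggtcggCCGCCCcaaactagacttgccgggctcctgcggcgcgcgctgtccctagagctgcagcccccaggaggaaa
Lamc1, chr13:68051987-68052236, minus strand: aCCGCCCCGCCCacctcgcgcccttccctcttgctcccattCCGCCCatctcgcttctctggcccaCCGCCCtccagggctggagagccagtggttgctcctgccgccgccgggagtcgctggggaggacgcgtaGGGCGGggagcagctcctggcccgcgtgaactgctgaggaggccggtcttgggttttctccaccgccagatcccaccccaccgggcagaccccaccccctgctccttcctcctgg
Lama4, chr20:43946648-43946897, plus strand: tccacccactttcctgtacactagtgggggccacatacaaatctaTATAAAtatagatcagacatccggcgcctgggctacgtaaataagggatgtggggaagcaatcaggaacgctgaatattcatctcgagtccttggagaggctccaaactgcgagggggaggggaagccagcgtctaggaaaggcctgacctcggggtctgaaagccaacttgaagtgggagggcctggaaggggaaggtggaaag
Lama2, chr1:19491896-19492145, plus strand: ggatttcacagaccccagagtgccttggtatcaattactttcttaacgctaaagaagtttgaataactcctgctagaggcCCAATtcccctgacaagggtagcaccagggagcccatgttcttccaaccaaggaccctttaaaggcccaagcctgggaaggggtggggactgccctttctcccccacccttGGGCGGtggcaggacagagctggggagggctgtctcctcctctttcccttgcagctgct

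Promoter sequences were matched by gene identifier for 8 of the 10 genes, the others being Lamb2 and Nid2. The windows of Lama5 and Lamc1 were rich in G and C (72.8% and 71.2%) and held 20 and 19 CG pairs, against a median of 51.2% and 5 pairs over the 33469 windows of the table. They held 4 and 5 GC boxes, a motif present in 30.5% of all windows, and a pair of the Lamc1 matches overlapped by a base. The windows of Lama4 and Lama2 had 53.2% and 55.6% G and C, with 8 and 2 CG pairs. Lama4 held a TATA box that begins 205 bases before the start and no GC box, and Lama2 a GC box and a CCAAT box. TATAAA was present in 12.9% and CCAAT in 34.0% of all windows. In the RefSeq table the Lama3 and Nid1 windows lie inside the gene, with starts 154869 and 273 bases from its outer end. The starts of Lamb1 and Lama2 lie 247 and 20 bases from that end. The Lama3 window held 3 AP-1 sites, a motif found in 4.05% of windows. Matches of this kind are letters in a window and say nothing of a factor's binding.

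The beta chain Lamb1, a partner in many laminins, was the most abundant transcript of the family. Listed in the order ATR 1, ATR 2, ATR 3 as all later triplets are, Lamb1 (gene ID 298941) stood at 229.62, 228.44 and 229.47 TPM, a mean of 229 ± 0.642 TPM (SD, n = 3), above 95.6% of all genes. The gamma chain Lamc1 (gene ID 117036), the gamma subunit of most laminins, stood at 184.3, 184.95 and 184 TPM, or 184 ± 0.486 TPM (SD, n = 3). Both were level across the libraries. Lama5 (gene ID 140433), the alpha chain of many mature epithelial basement membranes, stood at 185.94, 160.27 and 171.89 TPM, or 173 ± 12.9 TPM (SD, n = 3), and was highest in ATR 1. Lamb2 (gene ID 25473), a beta chain known from the glomerulus and the neuromuscular junction, stood at 156.7, 132.02 and 131.89 TPM, or 140 ± 14.3 TPM (SD, n = 3). It was higher in ATR 1 than in the other libraries, which were nearly equal.

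The nidogens are the connectors of the basement membrane. Nid1 (gene ID 25494) stood at 146.23, 142.15 and 153.09 TPM, or 147 ± 5.53 TPM (SD, n = 3). Nid2 (gene ID 302248) stood at 56, 49.74 and 49.65 TPM, or 51.8 ± 3.64 TPM (SD, n = 3), and was highest in ATR 1, whereas Nid1 was highest in ATR 3. The Nid1 to Nid2 ratio of TPM was 2.61, 2.86 and 3.08 in the 3 libraries. The read numbers of Nid1, Nid2 and Lama1 are not whole, so reads could have been divided between these genes and others, and their levels are less certain than those of the other 7 genes.

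The remaining alpha chains were far lower. Lama4 (gene ID 309816), an alpha chain of mesenchyme, muscle and vessels with a short N-terminal arm, stood at 7.78, 18.66 and 15.15 TPM, or 13.9 ± 5.55 TPM (SD, n = 3), and was low in ATR 1. Lama1 (gene ID 316758), an alpha chain best known from embryonic basement membranes, stood at 5.76, 4.96 and 5.63 TPM, or 5.45 ± 0.429 TPM (SD, n = 3). Lama2 (gene ID 309368), the alpha chain of muscle and peripheral nerve whose loss causes a congenital muscular dystrophy, stood at 0.94, 2.49 and 1.94 TPM, or 1.79 ± 0.786 TPM (SD, n = 3), and was again low in ATR 1. Lama3 (gene ID 307582), the alpha chain that anchors the epidermis, stood at 1.57, 1.43 and 1.93 TPM, or 1.64 ± 0.258 TPM (SD, n = 3). All 10 genes had a mean of at least 1 TPM, and 7 of them reached 10 and 5 of them 100 TPM. Their median was 96.0 TPM, against 10.1 TPM over all genes. Of all 17525 genes, 12518 reached 1 TPM, 8790 reached 10 TPM and 1883 reached 100 TPM.

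**Figure D1:**
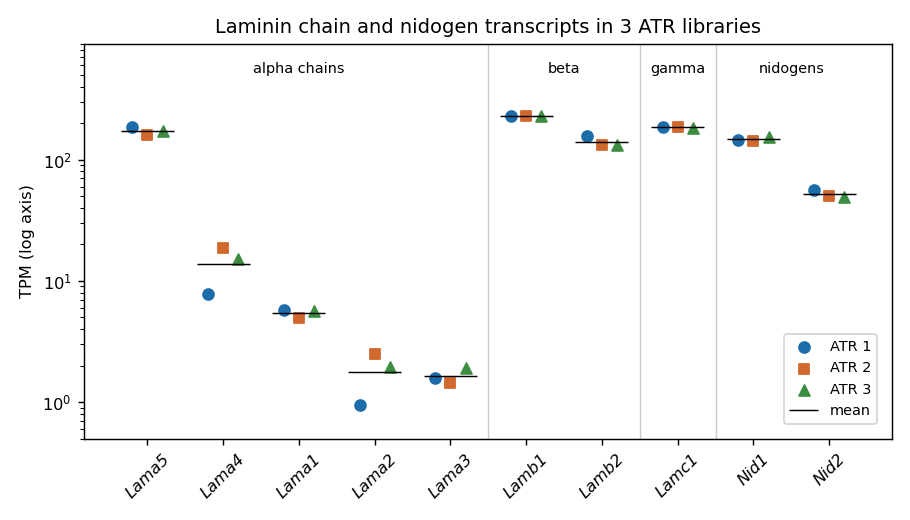
TPM on a log axis for each of the 10 genes, with 1 point for each ATR library and a line at the mean. Lamb1, Lamc1, Lama5, Lamb2 and Nid1 lie between 131.89 and 229.62 TPM in every library, and the alpha chains other than Lama5 lie at or below 18.66 TPM.

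In order of mean TPM the genes ran Lamb1, Lamc1, Lama5, Nid1, Lamb2, Nid2, Lama4, Lama1, Lama2 and Lama3. Of the 9 neighbouring pairs in this order, 6 had ranges that did not overlap. The ranges of Lamc1 and Lama5 overlapped, as did those of Nid1 and Lamb2 and those of Lama2 and Lama3, and in each of these pairs the order held in 2 of 3 libraries. Lamb1 exceeded Lamc1 by 1.25, 1.24 and 1.25 times. No test was made on the order. The genes of a pair were measured in the same 3 libraries, which are few for a paired test. Even an exact permutation test of 3 values against 3, which ignores this pairing, cannot go below a two-sided p of 0.1.

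Summed by class, the 5 alpha chains came to 201.99, 187.81 and 196.54 TPM, the beta chains Lamb1 and Lamb2 to 386.32, 360.46 and 361.36 TPM, and Lamc1 alone to about 184 TPM. Alpha chains thus made up 26.1% ± 0.442 (SD, n = 3) of the TPM of the 8 laminin chains, beta chains 49.3% ± 0.657 and the gamma chain 24.6% ± 0.702. The alpha sum exceeded Lamc1 by 1.10, 1.02 and 1.07 times and the beta sum by 2.10, 1.95 and 1.96 times. In transcripts, alpha and gamma sums were thus close and the beta sum was larger, which does not give the amounts of assembled trimers. Lama5 held 92.1%, 85.3% and 87.5% of the alpha sum, and Lama4 held 3.85%, 9.94% and 7.71%. The nidogens together came to 1.10, 1.04 and 1.10 times the level of Lamc1, the chain that binds them.

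**Figure D2:**
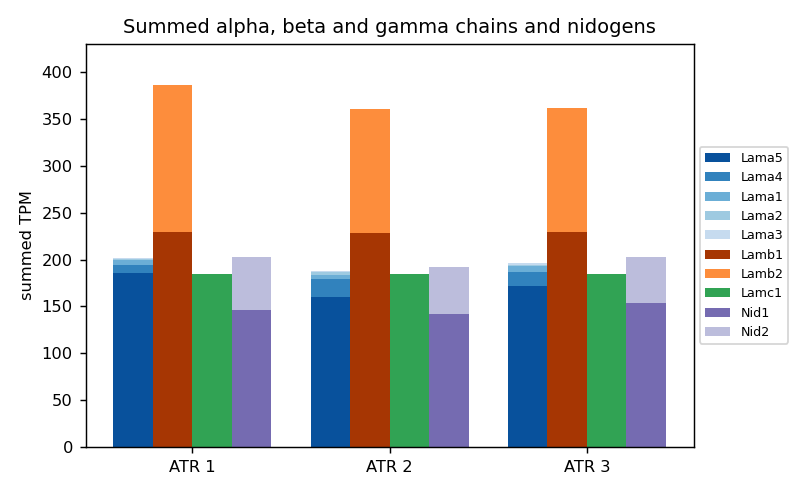
Summed TPM of the alpha chains, beta chains, gamma chain and nidogens in each ATR library, with bars stacked by gene and starting at 0. The beta bar is the tallest in every library (360.46 to 386.32 TPM), and Lama5 fills most of each alpha bar.

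Spread between libraries was tested gene by gene over the whole table, with a chi-square test of the read counts against library size and Benjamini-Hochberg adjustment. It compares libraries, not conditions. Of the 10 genes, 7 spread beyond counting noise (adjusted p under 0.05), against 23.2% of all 13309 genes tested. More reads let a smaller difference pass: among genes with at least 1000 reads over the libraries, 5 of 8 laminin and nidogen genes were called against 29.7% of 7621 genes. A 2-fold gap between the highest and the lowest library was reached by 2 of the 10, Lama2 and Lama4, against 1.24% of the 10506 genes whose mean was 5 CPM or more (CPM being a read count divided by library size, with no scaling for length).

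Lama4 had 424, 1022 and 848 reads in ATR 1, ATR 2 and ATR 3. Its read ratio of ATR 2 to ATR 1 was 2.45 (95% exact interval 2.19 to 2.75) and that of ATR 3 to ATR 1 was 2.00 (1.78 to 2.25), with a chi-square adjusted p of 3.11e-54. Lama2 had 82, 219 and 174 reads, with ratios of 2.71 (2.10 to 3.54) and 2.12 (1.62 to 2.80) and a chi-square adjusted p of 4.10e-13. By TPM both called genes were lowest in ATR 1 and highest in ATR 2. A called spread with this order held for 2 of the 10 genes and for 4.79% of all genes tested. The order was read from Lama4 and Lama2 themselves, so these counts describe and do not test it. Among genes with a called spread, it held for 2 of the 7 called here and for 20.6% over the whole table. The order alone, with or without a call, was shown by 2 of the 10 and by 3034 of all 17525 genes. Without ATR 1 neither gene reached a 2-fold gap, and the chi-square adjusted p of Lama2 was 0.0995. In bulk RNA, fewer cells of a type and less RNA per cell cannot be told apart.

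Lama5 and Lamb2 moved by less and in another order. Lama5 had 19003, 16469 and 18042 reads, and ATR 2 lay below ATR 1 at a read ratio of 0.881 (0.863 to 0.899), with a chi-square adjusted p of 5.67e-30. The calls of Lama5 and Lama4 held under each alternative run. Lamb2 had 7880, 6671 and 6813 reads, and its ratio of ATR 2 to ATR 1 was 0.860 (0.833 to 0.889), with a chi-square adjusted p of 1.25e-22. The call of Lamb2 rested on ATR 1, since without that library its chi-square adjusted p was 0.895. The Lamb1 to Lamb2 ratio of TPM was 1.47 in ATR 1 and 1.73 and 1.74 in ATR 2 and ATR 3.

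The nidogens differed by small amounts. Nid1 was higher in ATR 3 than in ATR 2, at a read ratio of 1.08 (1.05 to 1.12) and a chi-square adjusted p of 1.40e-06, which became 0.846 without ATR 3. Nid2 was lower in ATR 2 than in ATR 1, at a ratio of 0.908 (0.856 to 0.962) and a chi-square adjusted p of 0.00619, which became 0.967 without ATR 1. Lama3, with 160, 147 and 202 reads, passed narrowly at a chi-square adjusted p of 0.0469. It did not pass without ATR 2 (0.131), without ATR 3 (0.761) or with plain library totals as the scale (0.0590).

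Lamb1, Lamc1 and Lama1 did not pass. The coefficient of variation of TPM was 0.280% for Lamb1 and 0.263% for Lamc1, while counting alone gives 0.876% and 0.883% at their read numbers. On the scale of reads, ATR 3 stood above ATR 1 by 1.03 times for both (intervals 1.00 to 1.05), and the lowest library on the TPM scale was another (ATR 2 for Lamb1 and ATR 3 for Lamc1), so no direction is given. Their chi-square adjusted p-values were 0.233 and 0.180. Lama1, with 549.91, 476.78 and 552.05 estimated reads, had a chi-square adjusted p of 0.181.

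**Figure D3:**
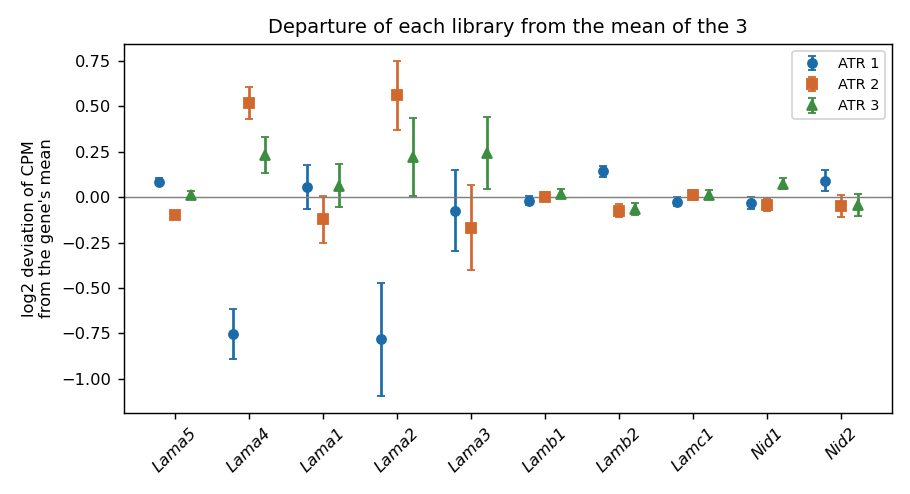
Log2 deviation of each library from the mean of the gene's log2(CPM + 0.5) over the 3 ATR libraries, with bars for the 95% counting error. Lama4 and Lama2 lie lowest in ATR 1 and highest in ATR 2, while Lamb1 and Lamc1 lie close to 0 in every library.

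Markers of the cell types that such a culture could hold were read beside Lama4 and Lama2. Of 6 fibroblast markers, Thy1 (23.23, 104.14 and 82.65 TPM) and Pdgfra (1.36, 5.27 and 3.67 TPM) had the same order of libraries. Lum was lowest in ATR 1 and highest in ATR 3, and Col14a1, Ogn and Dcn were highest in ATR 1. Read ratios of ATR 2 to ATR 1 were 4.64 (4.12 to 5.25) for Thy1, 4.04 (3.15 to 5.23) for Pdgfra and 0.819 (0.802 to 0.837) for Col14a1. The sum of the list was nearly level, at 598 to 613 TPM. It was made up mostly of Col14a1 and Ogn, at means of 301 and 188 TPM, and so hides the changes of Thy1 and Pdgfra. None of the fibroblast markers was at 0 in a library. Of 6 endothelial markers 5 stayed under 1 TPM, against 5007 of all 17525 genes, with 0, 3 and 1 reads for Pecam1 and 0, 1 and 1 for Cdh5. Kdr stood at 3.55, 3.12 and 3.17 TPM, or 3.28 ± 0.235 TPM, and Tek at 0.85, 0.48 and 0.72 TPM, both highest in ATR 1. Tie1 and Vwf were highest in ATR 3. None of the endothelial markers passed the chi-square test, and the list summed to 4.13 to 4.65 TPM. The 6 smooth muscle and pericyte markers found summed to 17677, 16486 and 16334 TPM. Of them 4 were highest in ATR 1, while Cnn1 and Notch3 were highest in ATR 2, and Notch3 (1.24, 1.42 and 1.37 TPM) had the order of Lama4 and Lama2 without passing the chi-square test. Leukocyte markers summed to 93.6, 118 and 117 TPM, with Ptprc under 1 TPM. Most of the sum was Lyz2 (60.23, 78.57 and 83.18 TPM), the only 1 of the 5 to pass the chi-square test. Lyz2 and Cd14 were lowest in ATR 1, Ptprc and Aif1 in ATR 2 and Cd68 in ATR 3. Granulosa markers summed to 2971, 2696 and 2591 TPM, most of it from Gja1 (2035.61, 1862.59 and 1821.06 TPM). Of the 8, Fshr, Inha, Foxl2 and Gja1 were highest in ATR 1. Inhba (282.17, 283.63 and 279.82 TPM) and Nr5a1 (60.65, 62.67 and 59.25 TPM) were highest in ATR 2. So was Amh, and Cyp19a1 was highest in ATR 3, both from few reads. Surface epithelium markers summed to 2250, 2090 and 2171 TPM, with Krt8 and Krt18 lowest and Upk3b and Lrrn4 highest in ATR 1. Msln (35.25, 51.62 and 30.33 TPM) was highest in ATR 2, as Lama4 and Lama2 were, but lowest in ATR 3. Krt19 and Epcam had only 5 and 13 reads in all. The part of fibroblasts, endothelium, smooth muscle, leukocytes, granulosa cells or surface epithelium in the order of Lama4 and Lama2 was not tested.

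**Figure D4:**
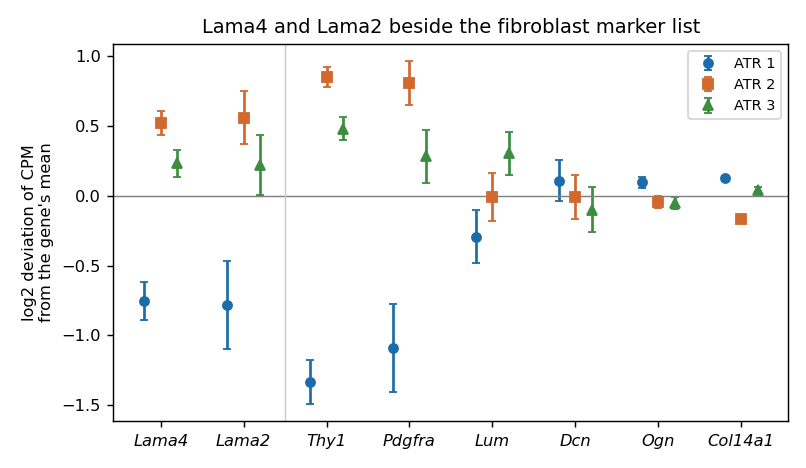
Log2 deviation of each ATR library from the gene's mean log2(CPM + 0.5), with 95% counting error, for Lama4 and Lama2 and for the 6 fibroblast markers. Thy1 and Pdgfra are low in ATR 1 and high in ATR 2 as Lama4 and Lama2 are, and Col14a1 is highest in ATR 1.

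Outside the 10 genes, Lamb3 and Lamc3 were both under 1 TPM on average. Lamb3, a beta chain that joins Lama3 in epithelial laminin, stood at 0.19, 0.72 and 0.38 TPM from 7, 26 and 14 reads, below Lama3 in each library. Lamc3 had 1, 0 and 1 reads. Lamb4 is not analysed here.

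Among 9 laminin receptors all reached 1 TPM and 6 reached 100 TPM, against 12518 and 1883 of all 17525 genes. Dag1, which encodes dystroglycan, led them at 2727.23, 2351.87 and 2362.28 TPM, or 2480 ± 214 TPM (SD, n = 3), and ranked 32 of all genes. The integrin subunit Itgb1 stood at 1136 ± 49.0 TPM. Its partners stood at 307 ± 2.68 TPM for Itga3, 120 ± 8.79 TPM for Itga6 and 21.7 ± 3.74 TPM for Itga7. Itgb4, the subunit of hemidesmosomes, was at 2.00 ± 0.123 TPM. The syndecans Sdc1 and Sdc4 stood at 273 ± 9.01 and 242 ± 12.4 TPM, and the Lutheran glycoprotein Bcam, which binds the Lama5 chain, at 64.9 ± 4.32 TPM. Spread passed the chi-square test in 6 of the 9, against 23.2% of all genes tested and 29.7% of those with at least 1000 reads. The median SD of log2 CPM between libraries was 0.0782 over the 9 receptors and 0.0859 over all genes. For Dag1, the ratio of ATR 2 to ATR 1 was 0.881 (0.874 to 0.888). All 6 genes of dystroglycan glycosylation, which builds the sugar that laminins bind, reached 10 TPM, from Pomt2 at 15.5 ± 0.297 TPM to Pomgnt1 at 140 ± 2.99 TPM, and none of them passed the chi-square test.

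Of 22 network partners, 20 reached 1 TPM and 7 reached 100 TPM, against 12518 and 1883 of all 17525 genes. The chi-square test was passed by 15 of the 22, against 23.2% of all genes tested and 29.7% of those with at least 1000 reads. The median SD of log2 CPM between libraries was 0.0871 over the 22 partners and 0.0859 over all genes. The collagen IV chains Col4a1 and Col4a2, which nidogens link to laminin, stood at 1055 ± 38.4 and 747 ± 20.5 TPM and thus above every laminin chain in each library. Col4a5 stood at 165 ± 7.83 TPM, while Col4a3, Col4a4 and Col4a6 lay between 5.39 and 12.2 TPM. The proteoglycan perlecan (Hspg2) stood at 164 ± 1.93 TPM and agrin (Agrn) at 45.4 ± 3.90 TPM. Fbln2, a nidogen-binding fibulin, stood at 51.15, 86.2 and 91.23 TPM and was low in ATR 1. Col15a1 stood at 4.70, 6.47 and 0.70 TPM, low in ATR 3, and its read numbers are not whole. Frem1 and Frem2 had means under 1 TPM, although Frem1 stood at 1.07 TPM in ATR 2.

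Over the receptors, network partners, glycosylation genes and further laminin chains together, 35 of 39 genes found reached 1 TPM, against 12518 of all 17525 genes. The median of the 39 was 45.4 TPM, against 10.1 TPM over all genes. Of 38 tested, 22 spread beyond counting noise, against 23.2% of all genes and 29.7% of those with at least 1000 reads. The 38 include genes with fewer reads, such as Lamb3 (47) and Frem2 (62), so the last share is from an unlike set. The median SD of log2 CPM between libraries was 0.0782 over the 39 genes and 0.0859 over all genes. It was 0.0985 over the 10 laminin and nidogen genes. The share called thus does not show a larger typical spread of the 39, and the part of read depth was not tested. Of the 22 called, the order of Lama4 and Lama2 by TPM (lowest in ATR 1, highest in ATR 2) was shown by 4, Lamb3, Itga3, Sdc4 and Smoc2, against 20.6% of all called genes. Frem1 had this order by reads (19, 87 and 29) but not by TPM (0.37, 1.07 and 0.35). Smoc2, a SPARC-related matrix protein, stood at 2.48, 7.28 and 5.36 TPM, and ATR 2 had 3.02 times the scaled reads of ATR 1 (2.24 to 4.11).

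**Figure D5:**
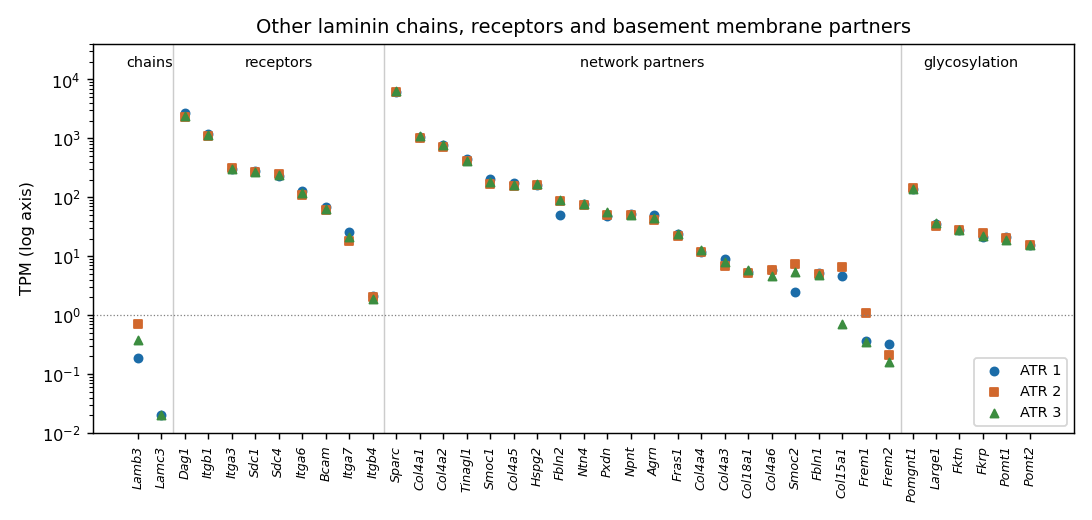
TPM on a log axis for further laminin chains, laminin receptors, network partners and dystroglycan glycosylation genes, with 1 point for each ATR library and a dotted line at 1 TPM (the 0 of Lamc3 in ATR 2 is not drawn). Dag1, Itgb1, Col4a1 and Sparc stand above 1000 TPM, and Lamb3, Lamc3, Frem1 and Frem2 have means under 1 TPM.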

How the data were processed

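Poly(A) RNA of cultured granulosa cells was read as pairs of 150 bases, per the labels' protocols. Tools listed without roles in the submitters' processing notes are fastp 0.20.1, HISAT2 2.2.1 and StringTie 2.1.5, with the builds Rnor_6.0 and GRCm38. Per the file headers the authors deposited TPM values and read counts, which are estimated counts because 19.0% to 19.2% of them per library lie over 0.001 from a whole number. The estimated counts deposited by the authors were rounded here to whole numbers.

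Libraries were scaled with TMM (edgeR 4.0.16, R 4.3.3). Genes with at least 30 reads in all were tested by chi-square with Benjamini-Hochberg adjustment over the whole table at 0.05, a script tested on simulated data. Read ratios carry exact (Clopper-Pearson) 95% intervals for counting error only, since molecules were not tagged. Alternatives used library totals, DESeq2 1.42.0 size factors, other filters, whole counts alone and left out each library. Plots used matplotlib 3.10.9, and other steps Python 3.11.15 with numpy 2.4.6, pandas 2.3.3 and scipy 1.17.1. Motifs were searched in RefSeq promoter windows.

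All members were named, and partner and marker genes came from lists: other chains and receptors by name, leading and low genes of the rest. Of 82 list entries 80 were found, and a further item is not reported here. The marker genes named, Fbln2, Smoc2 and Col15a1 were singled out after their values were seen. The members and lists were chosen with earlier results of these data known. The contrast of ATR with Control was planned only if its columns could be mapped, and was not run.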

Additional observations from a re-analysis of the deposited data

How the results depend on the processing

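No paired analysis was possible because no Control library was analysed beside the ATR libraries, so the planned contrast with Control and its alternatives gave no value. Of 10 genes, 7 spread beyond counting noise. The count was 4 (of 7 tested) with whole read counts alone, which leaves out Nid1, Nid2 and Lama1, and 4 to 6 with a library left out, the lowest without ATR 1, each such test resting on fewer reads. Over all genes it was 3087, and 1528 to 2230 with a library left out, again the lowest without ATR 1. Whether a member passed or not was unchanged in 85 of 95 checks, each of 1 member under 1 alternative, and a call was lost in the other 10, of which 6 were of Lama3. The count of genes with a 2-fold gap was 2, and 0 to 2 with a library left out, 0 of them without ATR 1. With CPM in place of TPM, so with no scaling for length, alpha chains made up 37.1% and beta chains 38.4% of laminin chain values, and the ratios were 3.59 for Nid1 to Nid2, 0.796 for summed nidogens to Lamc1 and 1.84 for Lamb1 to Lamb2. The limit of 1000 reads and the 2-fold count were chosen after seeing the data. Lamc3, with 2 reads in all, lies at the limit of this depth.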
